A study of Homo sapiens with 9 samples.

Results

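Messenger RNA of 2 clones derived from SW480, a line grown from a human colon adenocarcinoma in which APC is truncated, was compared gene by gene. One clone, D2.15, carried myc-tagged APC in the vector pEF and is called the APC clone here. The other, R38.7, carried pEF alone and is called the vector clone. The comparison used 6 of the 9 libraries of the series, 3 per clone, chosen by their labels, and the 3 libraries of untransfected SW480 are given beside them where they help to read a level. Both clones were kept in G418 at 1.5 mg/ml, in RPMI with serum, insulin, hydrocortisone and thioglycerol, and were harvested 72 h after plating, the parental line without G418. The labels give 200000 plated cells for the APC clone and a higher number for the vector clone and the parental line. Each group was 1 clone grown on 3 parallel plates, and the p-values therefore cover the spread among plates alone. A difference brought by the APC construct, one that arose in picking a single clone and one that follows the number of cells plated cannot be told apart in this design.

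The libraries held 17211154 to 18463511 counts over genes in the APC clone and 16454637 to 19355496 in the vector clone. Levels are counts scaled to library size with TMM factors (CPM), or, where genes are set beside each other, the deposited RPKM, which also divides by transcript length. All log2 fold changes are APC clone over vector clone with their standard error, and a gene is called where the adjusted p of edgeR's quasi-likelihood test is under 0.05. Of 14253 genes tested, 70.2% were called, 34.8% higher and 35.4% lower in the APC clone, and 8.63% and 9.69% were higher and lower by more than 2-fold. The 3 libraries of one clone did not overlap those of the other for 73.4% of genes. Across all genes the median log2 fold change was −0.01. Plates of 1 clone were close to each other, with a biological coefficient of variation of 3.56%, so that differences of 1.1-fold were called in abundant genes. A share of called members near 70.2% in a gene list is therefore the background of these clones, and the gene lists are read against these shares. Listed genes that were absent from the table or under the filter on low counts are given as listed but not tested, and a gene that passed the filter through 1 clone alone had to differ.

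APC is part of the cytoplasmic complex in which casein kinase and GSK3 phosphorylate beta-catenin so that it is ubiquitinated and degraded. When APC is truncated, as in most colorectal cancers, beta-catenin accumulates, enters the nucleus and works with TCF and LEF proteins on genes that include several inhibitors of the pathway itself. In the healthy colon this output is high in the stem and progenitor cells at the crypt base and falls as cells differentiate. APC also binds microtubules and proteins of the cell cortex.

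APC transcript was measured at 150, 146 and 140 CPM in the APC clone and at 48.1, 46.2 and 49.4 CPM in the vector clone. All 3 libraries of the APC clone lay above all 3 of the vector clone, which were as low as the parental line at 46.6 to 51.5 CPM. The log2 fold change was 1.6 ± 0.05 (edgeR adjusted p = 2.65e-25). The counts do not separate the transcript of the construct from that of the cells' own gene.

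The output of the Wnt pathway was lower in the APC clone for most genes that report it, with some members far in the other direction. Of 30 listed feedback inhibitors and targets 27 could be tested: 19 were lower, 6 higher and 2 not called, with a median log2 fold change of −1.42. AXIN2, the scaffold that limits the pathway as its feedback inhibitor, was measured at 86.8, 82.2 and 88.7 CPM in the APC clone against 565, 574 and 574 CPM in the vector clone (log2 fold change −2.73 ± 0.04, edgeR adjusted p = 1.28e-33). NKD1, which restrains Dishevelled, stood at 56.7, 56.5 and 58.2 CPM against 384, 365 and 371 CPM. For both genes the clones were far from overlapping. APCDD1, a membrane inhibitor of Wnt ligands, was 7.33-fold lower and TNFRSF19, a receptor gene that beta-catenin induces, 7.39-fold lower. The ubiquitin ligases RNF43 and ZNRF3, which remove Frizzled receptors from the cell surface, had log2 fold changes of −1.58 ± 0.05 and −1.03 ± 0.04. CCND1, the gene of cyclin D1, stood at 548, 515 and 507 CPM against 1400, 1400 and 1410 CPM (−1.42 ± 0.04). NOTUM, which encodes an enzyme that inactivates Wnt ligands, and TCF7 were lower by the smallest amounts among the called members, −0.24 ± 0.08 and −0.27 ± 0.05. The stem cell regulators ASCL2 and SOX9 were not called, at 14.9 and 115 CPM against 14.1 and 111 CPM.

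Members of the same list that were higher included inhibitors as well as growth genes. DKK4, a secreted inhibitor of the LRP co-receptors, was measured at 74.7, 74.1 and 71.9 CPM in the APC clone against 0.161, 0.123 and 0.208 CPM in the vector clone, and at 0.861 to 1.02 CPM in the parental line. No library of either other group came near the APC clone for this gene. NKD2, the paralog of NKD1, went the opposite way to it, with 51.8, 44.5 and 48.7 CPM against 13.8, 12.9 and 11.8 CPM (1.91 ± 0.08). MYC, a growth regulator, stood at 280, 283 and 286 CPM against 144, 154 and 144 CPM (0.94 ± 0.04, edgeR adjusted p = 1.42e-21). CD44, EPHB2 and PROX1, the genes of an adhesion receptor, an ephrin receptor and a transcription factor, were higher by 0.57 ± 0.04, 0.44 ± 0.05 and 2.04 ± 0.18 on the log2 scale. The vector clone itself had moved from the parental line in this list. It was called lower for 18 members and higher for 7, with a median log2 fold change of −0.34. Over all genes 50% were called between the vector clone and SW480, and 4.9% were called and over 2-fold. These values share the vector-clone libraries with the comparison of the clones. For APCDD1 the 3 groups ran from 857 CPM in SW480 over 395 CPM in the vector clone to 53.9 CPM in the APC clone.

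SP5, a transcription factor gene long known as a direct target, is shown for the letters before its start site, and was picked after its values were seen. It stood at 15.4, 15.1 and 14.2 CPM in the APC clone against 53.7, 54.8 and 54.2 CPM in the vector clone, again without overlap (−1.86 ± 0.18). The 250 bases before its start are given from RefSeq (GRCh38.p14, chr2:170715087-170715336, plus strand), with letters matching the TCF/LEF motifs CTTTGAA and CTTTGAT on either strand in capitals.

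SP5: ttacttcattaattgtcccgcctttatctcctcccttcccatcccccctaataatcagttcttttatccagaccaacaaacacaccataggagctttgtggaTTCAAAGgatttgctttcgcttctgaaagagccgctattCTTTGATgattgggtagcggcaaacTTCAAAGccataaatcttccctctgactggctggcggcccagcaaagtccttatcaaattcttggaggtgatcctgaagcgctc

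This window held CTTTGAA at 2 places, both on the minus strand, and CTTTGAT at 1 place on the plus strand. Of the 35116 windows of this length in the RefSeq table, 3.8% held CTTTGAA and 2.26% CTTTGAT. Among windows of tested genes the shares were 2.31% and 1.26%. Of the 13 lower Wnt targets with a window, 2 held CTTTGAA and 2 held CTTTGAT, with SP5 itself in both counts. Neither motif was found in the windows of the 3 higher members that have one. A match is a description of the letters in this window.

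Transcripts of the destruction complex differed much less than those of its targets. The list had 22 tested members, 8 higher, 7 lower and 7 not called, and its median log2 fold change was −0.02. APC itself was the member with the largest change. Among the others DVL1 and AMER1, an activator of the pathway and a membrane anchor of APC, were higher by 0.87 ± 0.06 and 0.71 ± 0.07, and CSNK1E, a casein kinase gene, was lower by 0.60 ± 0.04 on the log2 scale. The median log2 fold change of the 24 tested genes nearest to each was 0.56 for DVL1, −0.07 for AMER1 and 0.1 for CSNK1E. The part of position in these values was not tested. AXIN1, the constitutive scaffold, was not called, at 47.6 CPM against 44.7 CPM. The kinase genes GSK3A and GSK3B were called in opposite directions, 0.32 ± 0.04 and −0.20 ± 0.05.

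In the nuclear part of the pathway, with 23 listed members, 13 of 22 tested were lower, 4 higher and 5 not called. CTNNB1, the gene of beta-catenin, stood at 423, 432 and 431 CPM against 958, 917 and 938 CPM (−1.13 ± 0.04, edgeR adjusted p = 1.58e-23), and at 1300 to 1400 CPM in SW480. LEF1, which activates targets together with beta-catenin, was 5.18-fold lower, at 14, 13.2 and 12.1 CPM against 66.9, 67.1 and 70.1 CPM. The clones were fully apart for both genes. TCF7L2, the main TCF gene of the intestine, was higher by 1.04 ± 0.06. CTNNBIP1, the gene of a small protein that keeps beta-catenin from binding TCF, stood at 63.4, 65.2 and 64.2 CPM against 12.9, 14.9 and 14.6 CPM, 4.55-fold higher. The co-repressor genes TLE1 and TLE4 were lower by 1.22 ± 0.08 and 1.08 ± 0.11, whereas the co-activator gene BCL9L was higher by 0.73 ± 0.04.

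Genes of Wnt ligands and receptors were more often higher than lower: 18 of 30 tested members were higher, 7 lower and 5 not called, with a median of 0.26. WNT7B, a ligand gene, stood at 32.4, 27.8 and 24.1 CPM against 0.376, 0.246 and 0.312 CPM. WNT10A and WNT5B were 13.7-fold and 10.5-fold higher. In the other direction WNT11 was measured at 1.15, 1.04 and 0.993 CPM against 12.5, 10.7 and 11.9 CPM, and WNT5A was 2.48-fold lower. Ligand genes thus lay at both ends of this list. The co-receptor gene LRP5 and the receptor genes FZD5 and ROR1 were higher by 1.00 ± 0.05, 1.01 ± 0.09 and 1.76 ± 0.07 on the log2 scale. WLS, which carries Wnt ligands to the surface, was lower by 1.26 ± 0.05. Of the other 12 members, 11 were too low to be tested, and WNT9B was not in the table. RSPO2, RSPO3 and RSPO4 were among the 11, at 0 counts in both clones.

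**Figure D1:**
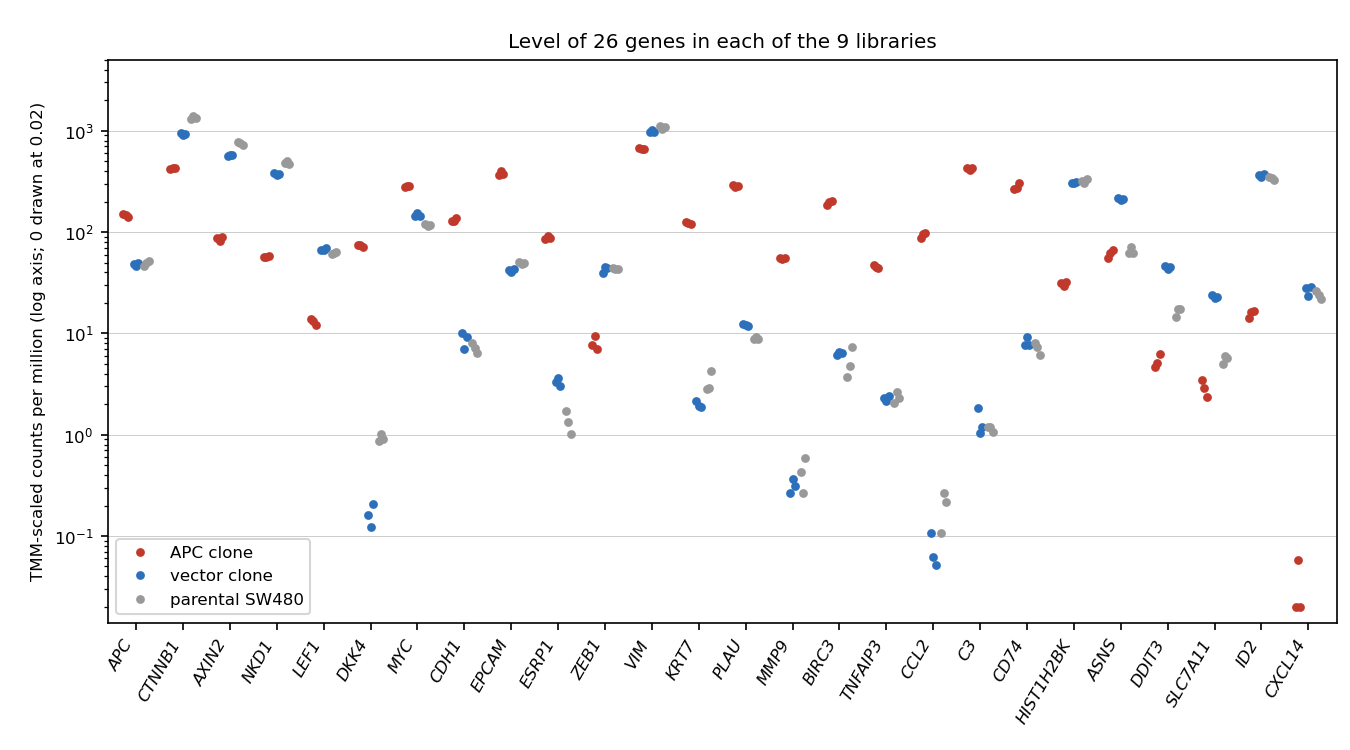
CPM of selected genes in each library (log axis, with a value of 0 drawn at 0.02), 1 point per library, coloured by group. For AXIN2, NKD1 and LEF1 the 3 APC-clone points lie below all others, and for CDH1, C3, CCL2 and CD74 above them.

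Epithelial genes were mostly higher in the APC clone. Of 49 listed and 44 tested junction and epithelial regulator genes 33 were higher, 9 lower and 2 not called, with a median log2 fold change of 1.47. CDH1, the gene of E-cadherin, which joins epithelial cells and binds beta-catenin at the membrane, stood at 130, 130 and 138 CPM against 9.98, 6.94 and 9.25 CPM (3.91 ± 0.07, edgeR adjusted p = 2.9e-26). EPCAM, an epithelial adhesion gene, stood at 370, 400 and 377 CPM against 42.7, 40.7 and 43.7 CPM. Each library of the APC clone lay several times above each of the vector clone for both genes. The tight junction genes CLDN7, MARVELD3 and CGN were higher by 4.34 ± 0.07, 5.19 ± 0.21 and 3.34 ± 0.10, and CLDN1 and OCLN by 2.33 ± 0.10 and 1.29 ± 0.08 on the log2 scale.

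Regulators of the epithelial state were higher with them. EHF, an ETS-family transcription factor gene, was measured at 84.3, 86.8 and 84.2 CPM against 2.42, 2.15 and 2.96 CPM, with 16.7 to 18.0 CPM in the parental line. The vector clone was thus below SW480 for EHF and the APC clone above both. ESRP1, which directs epithelial splicing, stood at 86.1, 91.2 and 87.2 CPM against 3.33, 3.62 and 3.01 CPM. ELF3, ST14 and SPINT1, the genes of a transcription factor, the protease matriptase and its inhibitor, were higher by 3.90 ± 0.08, 3.44 ± 0.05 and 2.62 ± 0.05. Some junction genes went the other way. TJP1, the gene of ZO-1, PVRL1, that of nectin-1, and CTNNA1, that of alpha-catenin, were lower by 0.84 ± 0.04, 1.18 ± 0.05 and 0.34 ± 0.04 on the log2 scale, and DSP, that of desmoplakin, was not called, at 219 CPM against 208 CPM. RAB25 was at 0 in both clones.

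Mesenchymal genes did not move as a group: 25 genes were listed and 17 tested, of which 8 were higher, 7 lower and 2 not called, and the median was 0.11. ZEB1, a repressor of CDH1, stood at 7.75, 9.42 and 7.07 CPM against 39.8, 44.8 and 44.3 CPM (−2.41 ± 0.08). FN1 and VIM, the genes of fibronectin and vimentin, were 2.42-fold and 1.48-fold lower, and VIM remained at 668 to 671 CPM. In contrast, SNAI2, another repressor of CDH1, was higher by 1.64 ± 0.15, and TNC, a matrix glycoprotein gene, stood at 72, 69.6 and 68.6 CPM against 5.85, 6.14 and 5.66 CPM. For TNC the vector clone was itself below SW480, at 25.0 to 28.6 CPM. ZEB2 and TWIST1 were not in the table. The E-box CAGGTG, which such repressors bind, was found in the windows before 5 of 18 higher (27.8%) and 2 of 7 lower (28.6%) epithelial genes that have one, on either strand, and in 17.5% of all windows.

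The keratin list, whose closely related members can share reads, had 22 members, and of the 17 tested 9 were higher, 7 lower and 1 not called. KRT7, a keratin of simple ductal epithelia, stood at 125, 124 and 121 CPM against 2.15, 1.9 and 1.87 CPM. KRT23 and KRT71 were at the other end, KRT23 with 45.3, 45.6 and 46.7 CPM against 533, 530 and 529 CPM, and KRT71 47.3-fold lower. KRT8 and KRT18, the main keratins of simple epithelia, had the highest RPKM of the list in the APC clone: KRT8 was not called, at 1210 against 1180 RPKM, and KRT18 was 1.29-fold lower, at 1290 against 1680 RPKM. KRT5, a basal keratin, was 1.99-fold lower. The median log2 fold change of the 24 nearest tested genes was −0.55 for KRT5, −0.64 for KRT18, −0.77 for KRT23 and −0.56 for KRT71. It was −0.71 for KRT7, which was itself higher, and the part of position was not tested.

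Cell-matrix genes were mostly higher. Among laminins, collagens and integrins 21 of 32 tested members (39 listed) were higher, 10 lower and 1 not called, with a median of 0.63. ITGB6, an integrin chain of injured and neoplastic epithelia, stood at 14.4, 13.1 and 14.1 CPM against 0.215, 0 and 0.208 CPM. LAMA3, a chain of laminin-332, was 3.46-fold higher, whereas LAMB3, a chain of the same laminin, was higher by only 0.18 ± 0.05 on the log2 scale. ITGA1, COL4A2 and COL18A1, an integrin and basement membrane collagen genes, were lower by 1.93 ± 0.06, 1.21 ± 0.06 and 0.70 ± 0.09.

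Of 34 matrix proteases and inhibitors 28 were tested: 17 were higher, 10 lower and 1 not called. MMP9, a gelatinase gene, stood at 55.1, 54.2 and 55.9 CPM against 0.268, 0.368 and 0.312 CPM. PLAU, which activates plasminogen, stood at 294, 280 and 285 CPM against 12.3, 12.2 and 11.9 CPM, and its receptor gene PLAUR was higher by 1.29 ± 0.05. MMP14, a membrane-anchored collagenase gene, and the lysosomal protease gene CTSB were 2.40-fold and 2.98-fold lower. Matrix protease genes thus differed in opposite directions, and the libraries of the clones did not overlap for MMP9 and PLAU.

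NF-kappaB is a family of transcription factors held in the cytoplasm by inhibitors such as I-kappaB-alpha until inflammatory signals release them, and genes of its inhibitors are among those it induces. Of the 25 listed subunits, adaptors and feedback inhibitors, all tested, 22 were higher in the APC clone, 2 lower and 1 not called, with a median of 0.83. NFKBIA, the gene of I-kappaB-alpha, stood at 85.2, 82.6 and 81.6 CPM against 15.6, 17.2 and 19.1 CPM (2.26 ± 0.06, edgeR adjusted p = 1.51e-26). TNFAIP3, the gene of the ubiquitin-editing inhibitor A20, stood at 47.1, 44.8 and 44.6 CPM against 2.31, 2.15 and 2.39 CPM. BIRC3, which encodes an inhibitor of cell death at tumour necrosis factor receptors, was measured at 186, 197 and 202 CPM against 6.07, 6.57 and 6.34 CPM. All 3 were apart between the clones, and the vector clone was near the parental line, where NFKBIA was at 16.5 to 17.7 CPM. The subunit genes RELB, NFKB2 and NFKB1 were higher by 2.03 ± 0.07, 1.76 ± 0.05 and 0.69 ± 0.05, and RELA by 0.21 ± 0.05. These differences were smaller than those of NFKBIA, TNFAIP3 and BIRC3. TNIP1, the member with the highest RPKM, was higher by 1.63 ± 0.04, less than RELB and NFKB2. The kinase gene IKBKB was lower by 0.52 ± 0.06, and IKBKG by 0.15 ± 0.06, the latter not called without APC replicate 2 (edgeR adjusted p = 0.121) or CONTROL replicate 2 (0.119).

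Chemokine and cytokine genes made up the list with the second highest median. Of 33 listed and 23 tested members 19 were higher, 1 lower and 3 not called, with a median log2 fold change of 4.52. The median was 2.8 when the 2 members at 0 counts in 1 of the clones were set at their bound. CCL2, which attracts monocytes, stood at 88.4, 96.3 and 97.3 CPM against 0.107, 0.0614 and 0.0519 CPM (10.18 ± 0.15, edgeR adjusted p = 3.59e-34). The neutrophil chemokine genes CXCL1 and IL8 were 162-fold and 134-fold higher, CXCL1 at 30.5, 30.1 and 32.4 CPM against 0.268, 0.123 and 0.156 CPM. CSF2, the gene of the growth factor GM-CSF, was 38.5-fold higher. These genes were near the lower limit of detection in the vector clone and in the parental line. They entered the test through the APC clone alone, where they had to be higher. The counts and median of this list describe the genes that passed. CXCL14, a chemokine gene of epithelia, was the 1 member lower: it had 518, 378 and 553 counts in the vector clone and 1 count over the 3 libraries of the APC clone, a ratio of 1410 (95% counting interval 252 to 55600). Such intervals cover counting error only. CCL28, IL11 and TSLP were not called. TNF was listed at 0 in both clones. It lies in the MHC region, where many genes are at 0 in these files as given with the class II genes, so no level is read from it.

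The windows before 3 of the higher genes are shown because each holds the NF-kappaB motif GGGA, any 2 bases, TTCC, in capitals where it matches on either strand. They are CXCL1 (chr4:73869143-73869392, plus strand), NFKBIA (chr14:35404750-35404999, minus strand) and TNFAIP3 (chr6:137867009-137867258, plus strand), each 250 bases, 5′ to 3′ in the direction of the gene, from RefSeq (GRCh38.p14).

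CXCL1: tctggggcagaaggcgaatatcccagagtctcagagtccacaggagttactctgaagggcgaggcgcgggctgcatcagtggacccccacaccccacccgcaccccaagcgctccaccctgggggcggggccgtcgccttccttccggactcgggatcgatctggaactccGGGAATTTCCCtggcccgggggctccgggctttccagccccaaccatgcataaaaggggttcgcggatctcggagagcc

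NFKBIA: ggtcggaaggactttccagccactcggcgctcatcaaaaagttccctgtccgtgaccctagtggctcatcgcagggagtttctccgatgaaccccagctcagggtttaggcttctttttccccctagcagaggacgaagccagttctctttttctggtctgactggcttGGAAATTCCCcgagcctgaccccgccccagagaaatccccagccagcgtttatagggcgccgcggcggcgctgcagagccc

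TNFAIP3: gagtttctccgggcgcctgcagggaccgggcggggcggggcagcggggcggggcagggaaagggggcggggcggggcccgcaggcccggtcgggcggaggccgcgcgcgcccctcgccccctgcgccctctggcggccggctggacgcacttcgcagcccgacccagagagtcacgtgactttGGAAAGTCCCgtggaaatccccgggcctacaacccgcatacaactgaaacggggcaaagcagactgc

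In CXCL1 the motif matched on both strands at overlapping places. This motif was held by 1.4% of all windows and by 1.46% of those of tested genes. It was found in 6 of the 10 higher chemokine genes with a window (60%) and in 5 of the 20 higher genes of the NF-kappaB list with a window (25%). The 1 lower gene with a window in each list had no match, and members not called were not counted. These shares therefore do not tell the higher members from the rest of their lists. The counts describe letters, and no binding was measured.

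Complement and acute phase genes were higher in 9 of 14 tested members of 27 listed, lower in 1 and not called in 4. C3, the central complement component, stood at 433, 407 and 433 CPM against 1.83, 1.04 and 1.19 CPM (8.27 ± 0.08, edgeR adjusted p = 4.5e-39). LCN2, an iron-binding protein gene of mucosal defence, was 12.2-fold higher. SAA1, an acute phase gene, was measured at 2190, 2320 and 2190 CPM against 374, 390 and 374 CPM, and it differed between the other groups as well, with 105 to 109 CPM in SW480. SAA1, SAA2 and the readthrough SAA2-SAA4 share reads, so their separate values are uncertain. C1S was the lower member (−1.04 ± 0.24). C2 and CFB were listed at 0 in both clones and lie in the same region, so no level is read from them either.

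MHC class I molecules present peptides of the cell's own proteins, and class II molecules, normally made by antigen-presenting cells, can also appear on epithelial cells. All 14 tested genes of the class I route, of 22 listed, were higher, with a median of 1.19. B2M, the light chain, stood at 776, 840 and 802 CPM against 353, 351 and 356 CPM. HLA-B and HLA-C, which share reads, were higher by 1.94 ± 0.10 and 1.19 ± 0.05, and NLRC5, their transcriptional activator, by 1.54 ± 0.09. CANX and PDIA3, chaperones of assembly, had the smallest differences of this list, 0.16 ± 0.04 and 0.40 ± 0.04.

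All 9 tested genes of class II presentation, of 15 listed, were higher too, with a median of 5.68, or 5.05 with bounds. CD74, the invariant chain that guides class II molecules, stood at 268, 273 and 305 CPM against 7.68, 9.21 and 7.74 CPM. CIITA, the activator of class II genes, was measured at 13.1, 13.0 and 11.3 CPM against 0.322, 0.368 and 0.416 CPM, and HLA-DQB1 was 51.3-fold higher. HLA-DRB1 had 201, 209 and 187 counts in the APC clone and 2 over the 3 libraries of the vector clone, a ratio of 307 (84.7 to 2540). Class II genes share reads among relatives, and those low in the vector clone entered the test through the APC clone alone, so the count of 9 describes the genes that passed. Values in the MHC region were incomplete in these files. From HLA-F to KIFC1 in RefSeq gene order 81 of 171 genes (47.4%) were at 0 in all 9 libraries, against 9.11% of all genes, and 11.1% could be tested, against 68.3%. HLA-F, TAP1, PSMB8, HLA-DPA1, HLA-DMA, HLA-DMB, TNF, C2 and CFB were at 0 in both clones, so no level is read from these.

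Interferon-response genes were higher in 22 of 32 tested members of 36 listed, lower in 6 and not called in 4, with a median of 0.90. GBP1, a GTPase gene induced by interferon-gamma, stood at 19.8, 19.8 and 17.9 CPM against 0.483, 0.676 and 0.467 CPM. IFIH1, a sensor of double-stranded RNA, and IRF1, a transcription factor of the response, were 13.4-fold and 3.33-fold higher. IFI27 was 27.6-fold lower, at 0.824, 0.867 and 0.409 CPM against 19.5, 20.7 and 18.6 CPM, with SW480 between the clones at 4.39 to 4.95 CPM. IFITM2, OAS2 and IFI6 were lower by 1.92 ± 0.04, 3.32 ± 0.16 and 1.45 ± 0.08. Genes of the response thus lay far out in both directions.

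**Figure D2:**
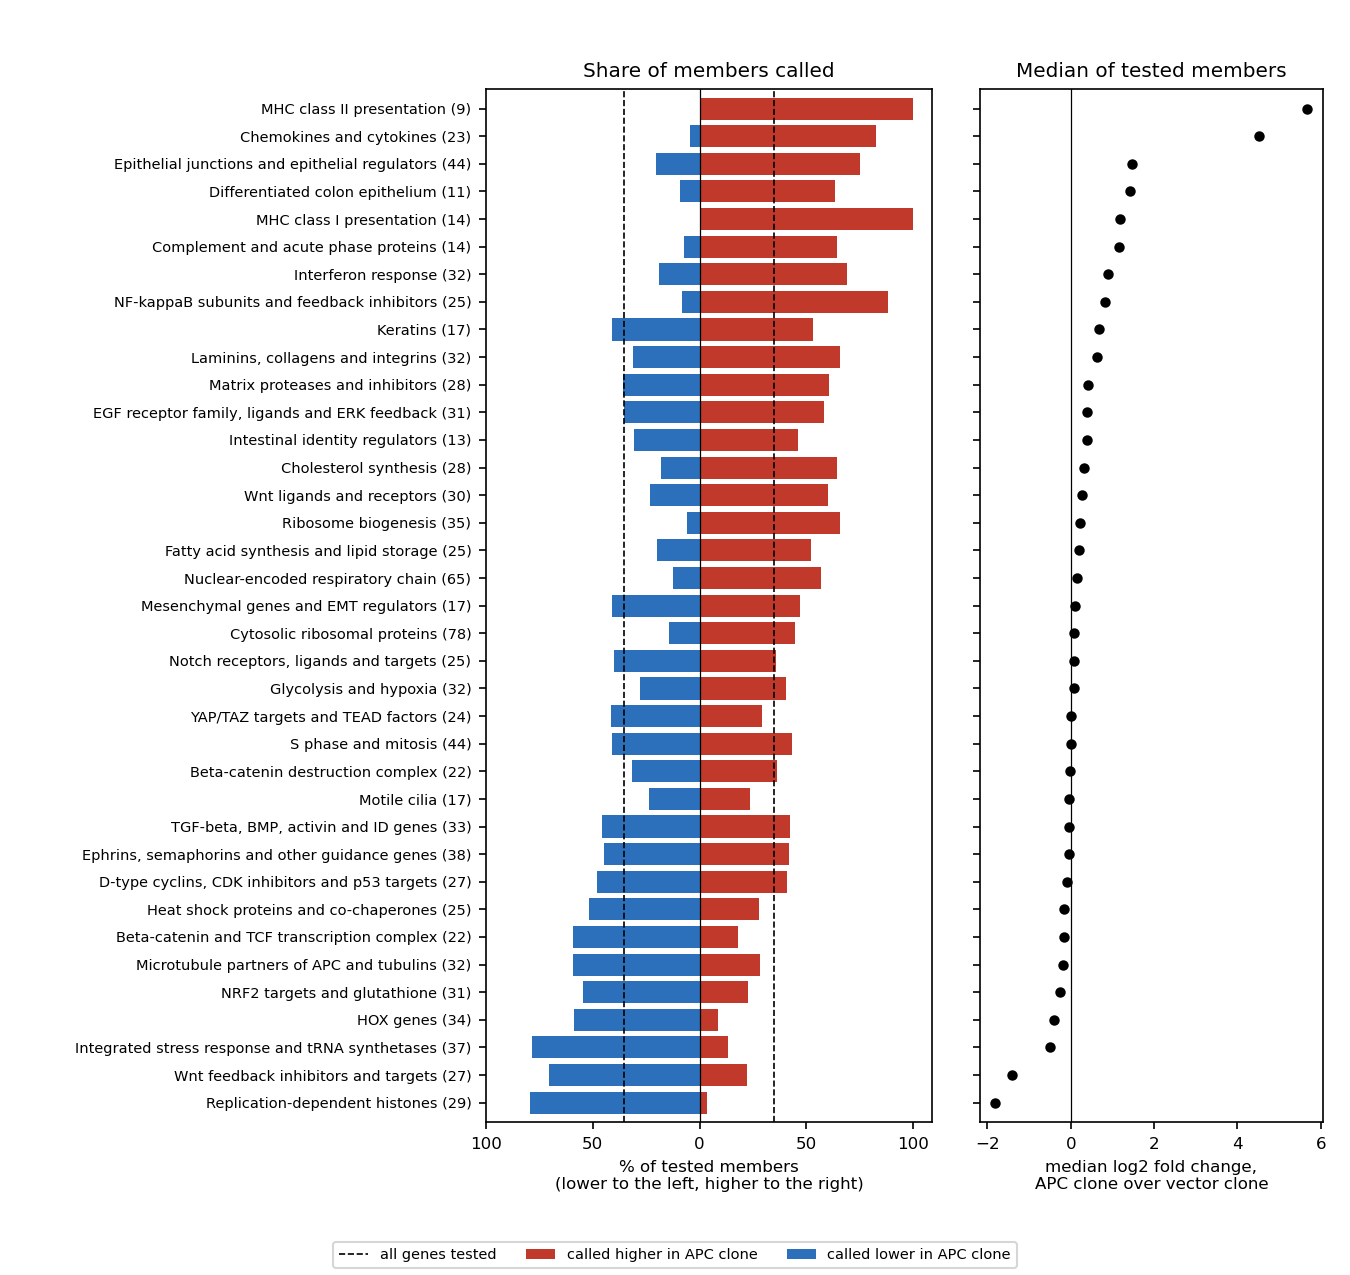
Share of tested members called higher and lower in the APC clone for each list with at least 9 tested members, and the median log2 fold change of each list; dashed lines give the shares over all genes tested. The MHC class II, chemokine and epithelial lists have the highest medians, and the histone and Wnt target lists the lowest.

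Genes of intestinal identity differed in both directions. Of 22 regulators 13 were tested: 6 were higher, 4 lower and 3 not called. CDX2, the transcription factor that sets intestinal fate, was lower, at 15.6, 14.9 and 14.3 CPM against 26, 22.7 and 25.2 CPM (−0.73 ± 0.08, edgeR adjusted p = 2.68e-10), and KLF5, a factor of crypt progenitors, was 2.66-fold lower. KLF4, a factor of differentiated and goblet cells, stood at 29.0, 27.9 and 29.3 CPM against 7.14, 6.76 and 6.86 CPM. FOXA1 and GATA6, factors of endodermal epithelia, were higher by 4.65 ± 0.38 and 2.82 ± 0.20 from levels of 0.106 and 0.824 CPM. HNF4A was not called, and CDX1, HNF4G, GATA4 and ISX were at 0 in both clones.

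Most genes of the differentiated colon were absent or very low in all groups. Of 41 listed, 8 were not in the table, 22 could not be tested, and of the 11 tested 7 were higher, 1 lower and 3 not called. FXYD3, a regulator of the sodium pump, stood at 25.7, 25.4 and 28.7 CPM against 0.107, 0.184 and 0.104 CPM, and CEACAM1, an adhesion receptor gene, was 9.72-fold higher. MUC2, the gel-forming mucin of goblet cells, reached 5.82 CPM against 0.071 CPM, and VIL1, which bundles actin in microvilli, 4.62 CPM against 0.414 CPM. CA1 and SLC26A3, abundant in mature colonocytes, were at 0. MUC12 was the 1 lower member, and FCGBP, CHGA and ANPEP were not called. FXYD3 was near the floor in the vector clone and in SW480 and entered the test through the APC clone alone. The APC clone was thus higher for single colon markers and not for others, with CA1 and SLC26A3 at 0 in both clones.

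Genes of replication-dependent histones, which package newly made DNA and whose mRNA normally lacks a poly(A) tail, formed the list with the lowest median of those with at least 9 tested members. Of 59 listed and 29 tested members 23 were lower, 1 higher and 5 not called, with a median log2 fold change of −1.81. HIST1H2BK was measured at 31.6, 29.4 and 32.3 CPM against 307, 305 and 314 CPM (−3.31 ± 0.05, edgeR adjusted p = 1.71e-34), and HIST1H1C, a linker histone gene, at 9.78, 10.8 and 11.9 CPM against 160, 160 and 158 CPM. The clones were apart in every library for both. HIST3H2A was the member that was higher (1.37 ± 0.17). The libraries were made from polyadenylated RNA, so these counts do not measure the histone mRNA that lacks a tail, and the near-identical members share reads.

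Replication and mitosis genes were split evenly, 19 of 44 higher, 18 lower and 7 not called, with a median of 0.00. MKI67, a marker of cycling cells, stood at 796, 802 and 819 CPM against 585, 568 and 591 CPM, and PCNA, the sliding clamp of replication, was 1.38-fold higher. TOP2A and CDC6, which untangle DNA and license origins, were 1.72-fold and 1.77-fold lower, TOP2A at 606, 630 and 628 CPM against 1080, 1040 and 1080 CPM. CCNB1, CDC20 and AURKB were not called. Canonical markers of the same cell-cycle phases thus differed in opposite directions by less than 2-fold. The genes around them differed in the same direction, with neighbour medians (over the 24 nearest tested genes) of 0.52 for MKI67, 0.58 for PCNA, −0.76 for TOP2A and −0.67 for CDC6. Over the 44 genes of the list r with the neighbour median was 0.64 and rho 0.53, a description across genes, and the part of position was not tested. With a minimum fold of 1.5 as the tested hypothesis 0 were higher and 3 lower.

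Among D-type cyclins, CDK inhibitors and p53 targets 11 of 27 were higher, 13 lower and 3 not called. The cyclin D genes differed in opposite directions: CCND2 stood at 93.8, 91.5 and 85.5 CPM against 5.21, 4.48 and 5.04 CPM, beside the lower CCND1 above, and CCND3 was lower by 0.27 ± 0.04. Their partner kinases did so as well, with CDK6 2.59-fold higher and CDK4 1.63-fold lower. The neighbour median was −0.75 for CDK4 and −0.08 for CDK6, and the part of position was not tested. CDKN1A, the p21 gene, was lower by 0.50 ± 0.05, CDKN2A higher by 0.66 ± 0.07, and MDM2 not called.

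The integrated stress response raises amino acid transport and synthesis genes through ATF4 when amino acids are short or proteins misfold. In this list 29 of 37 tested members were lower in the APC clone, 5 higher and 3 not called, with a median of −0.49. ASNS, asparagine synthetase, stood at 55.2, 62.8 and 67.0 CPM in the APC clone, 219, 209 and 210 CPM in the vector clone and 61.9, 71.1 and 61.9 CPM in SW480. DDIT3, the CHOP gene, stood at 4.62, 5.09 and 6.25 CPM, 46.6, 43.5 and 44.8 CPM, and 14.4, 17.6 and 17.6 CPM in the same order, and SLC7A11, the cystine transporter, at 2.34 to 3.46, 22.2 to 24.1 and 5.01 to 5.95 CPM. For all 3 the vector clone was the high group and the parental line was near the APC clone or between. The vector clone was called over SW480 for 33 members and under it for 1, with a median of 0.57, so these genes differ between the 2 unrestored groups as well. VLDLR, a lipoprotein receptor gene, was 8.79-fold below the vector clone, which lay over SW480 by 0.31 ± 0.06. DDIT4 and CEBPB were higher in the APC clone, by 2.38 ± 0.09 and 1.69 ± 0.10, and ATF4 itself was lower by 0.19 ± 0.04.

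**Figure D3:**
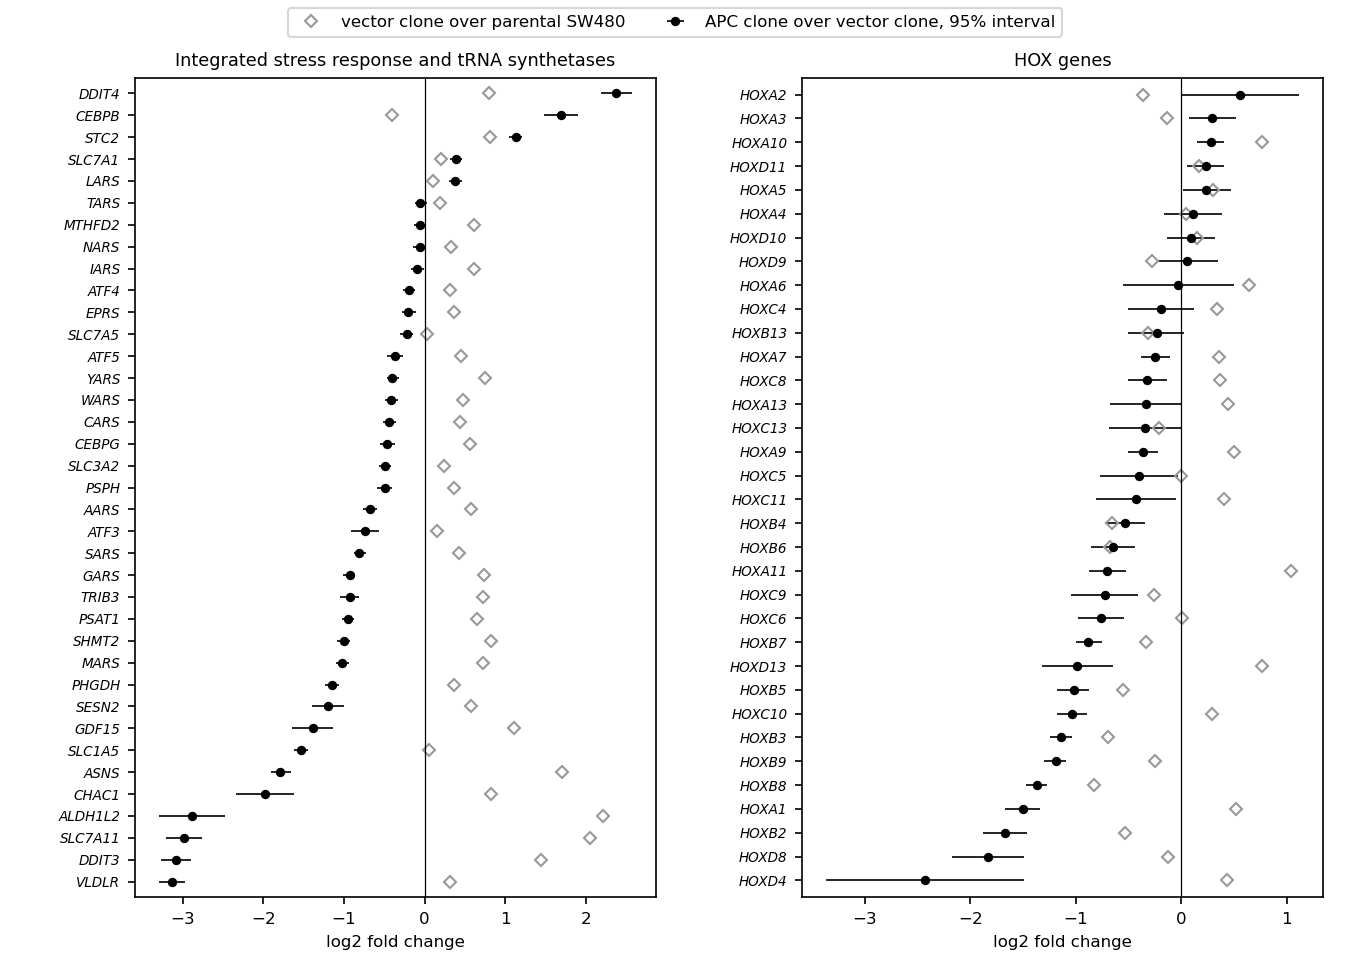
Log2 fold change of APC clone over vector clone with its 95% interval for members of the integrated stress response and HOX lists (points), with the vector clone over SW480 as diamonds. ASNS, DDIT3 and SLC7A11 have points to the left and diamonds to the right of 0, and HOXB8 has both to the left.

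HOX genes, which keep the positional identity of cells along the body axis, were lower in 20 of 34 tested members of 39 listed, higher in 3 and not called in 11, with a median of −0.41. The largest differences came from several clusters, with HOXD4 and HOXD8 lower by 2.43 ± 0.46 and 1.83 ± 0.17. HOXB8 stood at 38.3, 34.6 and 37.0 CPM against 93.6, 98.5 and 92.4 CPM, with 163 to 179 CPM in SW480. HOXB2, HOXB9 and HOXB3 were lower by 1.67 ± 0.10, 1.19 ± 0.05 and 1.14 ± 0.05, and HOXB13 was not called. HOXA10 was higher by 0.28 ± 0.07 and HOXD11 by 0.24 ± 0.09, the latter not called without CONTROL replicate 2 (edgeR adjusted p = 0.0511). For HOXB8 the order was APC clone, vector clone, SW480, with no overlap between neighbours.

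Ribosomal protein genes differed little: 79 were listed, and of the 78 tested 35 were higher, 11 lower and 32 not called, with a median of 0.09. RPL21 was the highest by fold, at 1340, 1420 and 1350 CPM against 804, 830 and 819 CPM (1.68-fold), and RPL23 the lowest, at 729, 778 and 738 CPM against 1150, 1190 and 1180 CPM (1.56-fold). With a minimum fold of 1.5, 1 was higher and 0 lower. Their differences went with those of the genes around them. Over 77 ribosomal protein genes the log2 fold change had a Pearson r of 0.77 and a Spearman rho of 0.64 with the median of the 24 nearest tested genes, and over all 13874 genes with such neighbours r was 0.23 and rho 0.29. These are descriptions across genes, which share the same 6 libraries, with no test. RPL19 and RPL23 had neighbour medians of −0.54 and −0.52, and RPS19, RPL28 and RPS21 of 0.45, 0.46 and 0.40. The part that position has in these values was not tested.

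**Figure D4:**
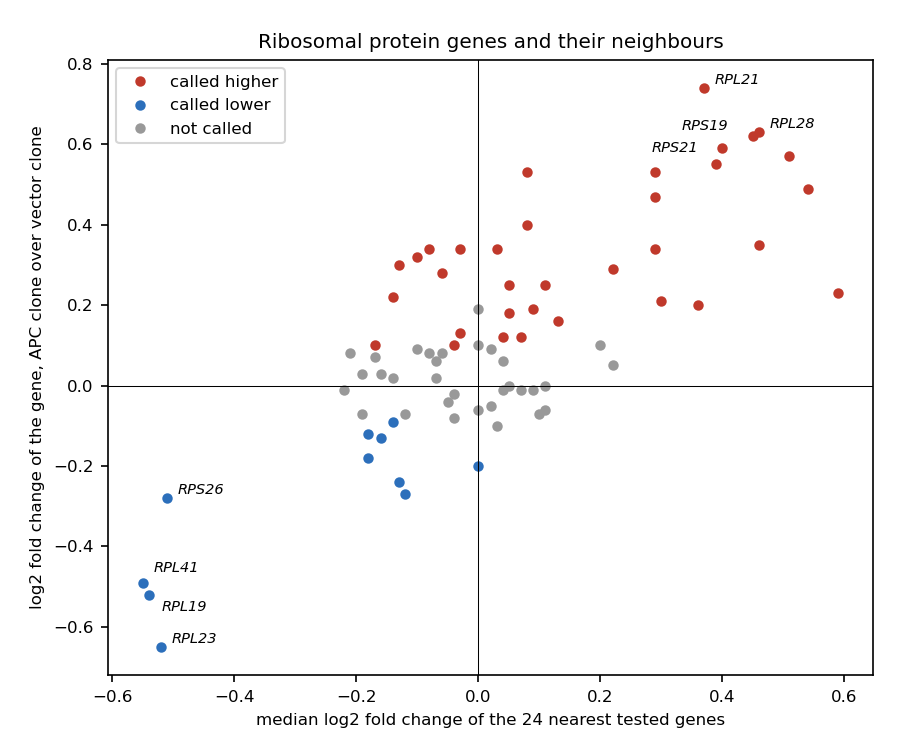
Log2 fold change of each ribosomal protein gene (vertical axis) against the median log2 fold change of the 24 nearest tested genes in RefSeq order (horizontal axis), 1 point per gene. Genes such as RPL23 and RPL19 lie at the lower left, and RPL28 and RPS19 at the upper right.

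Ribosome biogenesis genes were higher in 23 of 35 members, lower in 2 and not called in 10, by small amounts (median 0.22). NHP2, NOLC1 and NOP56, which work on small nucleolar RNA-guided modification of ribosomal RNA, were 1.81-fold, 1.65-fold and 1.65-fold higher. NPM1, the most abundant member per length, was not called at 1650 against 1770 RPKM (edgeR adjusted p = 0.0651), but passed with the 6 libraries alone (0.00814), and RRP12, called lower (−0.12 ± 0.05), did not pass with DESeq2 (adjusted p = 0.0861).

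Cholesterol synthesis genes were mostly higher, 18 of 28, with 5 lower and 5 not called and a median of 0.33. HMGCS1, an early enzyme of the route, stood at 65.2, 70.3 and 74.4 CPM against 35.2, 29.0 and 29.3 CPM. STARD4, a sterol carrier, was 2.83-fold lower. Among fatty acid and lipid storage genes 13 of 25 were higher, 5 lower and 7 not called: MGLL and ELOVL6, a lipase and an elongase, were 8.65-fold and 4.24-fold higher, FASN was higher by 0.80 ± 0.04, and ACSL4 was 1.68-fold lower.

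Glycolytic enzymes as such differed little, and the large differences in the glycolysis and hypoxia list were in hypoxia-associated genes. Of 33 listed and 32 tested 13 were higher, 9 lower and 10 not called. GAPDH was higher by 0.29 ± 0.04, and ENO1, PGK1 and ALDOA were not called. CA9, a carbonic anhydrase gene, stood at 17.9, 16.1 and 15 CPM against 0.322, 0 and 0.104 CPM, and ANGPTL4 was 20.3-fold higher, whereas NDRG1 and SLC2A3, the GLUT3 gene, were 6.53-fold and 3.19-fold lower. Respiratory chain genes encoded in the nucleus were higher in 37 of 65, lower in 8 and not called in 20, with a median of 0.14. NDUFB8 was higher by 1.08 ± 0.05 and ATP5G2 lower by 1.04 ± 0.04, with neighbour medians of 0.43 and −0.65. Over the list r with the neighbour median was 0.51 and rho 0.29, against 0.23 and 0.29 over all genes. The 5 members whose neighbours were highest had a median log2 fold change of 0.51. The 8 members whose neighbours were lowest had a median of 0.09, and the 52 between them 0.13. The part of position was not tested. With a minimum fold of 1.5, 1 member was higher and 1 lower.

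NRF2 targets and glutathione genes were lower in 17 of 31 tested members (34 listed), higher in 7 and not called in 7. NQO1, a quinone reductase, stood at 283, 302 and 295 CPM against 536, 558 and 535 CPM, with 333 to 370 CPM in SW480. The vector clone was called over the parental line for 21 members and under it for 5. MGST1, a membrane glutathione transferase, was 14.9-fold higher in the APC clone. Heat shock genes (27 listed) were lower in 13 of 25, higher in 7 and not called in 5: HSPB1 was lower by 0.73 ± 0.04, BAG3 higher by 0.72 ± 0.05, and HSPA8 not called.

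Signalling genes downstream of growth factors differed in opposite directions. In the EGF receptor and ERK list 18 of 31 tested (36 listed) were higher, 11 lower and 2 not called. MET, the receptor of hepatocyte growth factor, stood at 108, 116 and 104 CPM against 9.77, 7.68 and 8.52 CPM, and the ligand gene TGFA was higher by 1.54 ± 0.05. Immediate-early genes of the list were split: EGR1, FOS, FOSB and FOSL2 were lower, JUNB, IER2 and FOSL1 higher, and JUN and JUND not called. FOS stood at 8.19, 6.71 and 8.24 CPM against 80.6, 75.3 and 69.0 CPM, and EGR1 was 6.75-fold lower, while FOSL1 was higher by 0.65 ± 0.06 on the log2 scale. DUSP6, a phosphatase that dampens ERK, was 3.82-fold lower, whereas DUSP4 and ERRFI1, other dampers of the route, were 4.29-fold and 4.86-fold higher.

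In the TGF-beta, BMP and ID list 14 of 33 tested (38 listed) were higher, 15 lower and 4 not called. ID2, an inhibitor of differentiation factors, stood at 14.2, 16.2 and 16.7 CPM against 366, 349 and 375 CPM, while its relative ID1 went the other way, at 26.5, 21.7 and 24.1 CPM against 2.79, 2.27 and 2.60 CPM. The libraries of the clones were apart for both. BMP4 and BAMBI, a ligand and a decoy receptor, were 2.96-fold and 4.19-fold lower, and INHBB, an activin subunit, was 8.92-fold higher. The Notch list had 9 higher, 10 lower and 6 not called of 25 tested (26 listed), with HES1, its classic target, lower by 0.78 ± 0.06 and JAG1, a ligand, by 0.83 ± 0.07. Of 24 YAP and TAZ genes 7 were higher, 10 lower and 7 not called. CTGF was 8.63-fold lower, CYR61 was not called, and F3, the tissue factor gene, was 10.4-fold higher.

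Guidance genes, such as ephrins, semaphorins and their receptors, were higher in 16 of 38 tested members of 46 listed, lower in 17 and not called in 5. EFNB1, an ephrin ligand gene, stood at 45.9, 39.6 and 42.5 CPM against 292, 324 and 307 CPM, while EFNB2 was 4.33-fold and EFNA5 11.6-fold higher. The receptor gene EPHA4 was 4.88-fold lower and EPHB4 higher by 0.97 ± 0.04. SLIT1 was measured at 0.495, 0.809 and 0.643 CPM against 39.8, 39.4 and 39.9 CPM, and SEMA5A had 1 count in the APC clone and 246 in the vector clone, a ratio of 239 (42.5 to 9470).

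Of 33 genes of microtubule proteins that APC binds and of tubulins 32 were tested: they were lower in 19, higher in 9 and not called in 4. MAPRE1, the gene of EB1, the plus-end protein at the end of APC, was higher by 0.38 ± 0.04, MAPRE2 higher by 0.85 ± 0.08 and MAPRE3 lower by 1.00 ± 0.11. TUBA1B, the most abundant tubulin per length, was 1.57-fold lower, at 1000 against 1580 RPKM, and MAP1B and STMN1, which stabilise and destabilise microtubules respectively, were 3.59-fold and 1.97-fold lower. MAP7, an epithelial microtubule protein, stood at 38.3, 40.5 and 39.6 CPM against 1.77, 2.52 and 2.08 CPM. Tubulin genes share reads with their relatives.

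Cancer-testis antigen genes were mostly out of reach: of 28 listed 10 were not in the table and 13 too low to be tested, and the 5 tested were lower. MAGEC2 stood at 0.165, 0.405 and 0.175 CPM in the APC clone, 102, 97 and 96.3 CPM in the vector clone and 25.2 to 26.9 CPM in SW480, a different level in each group. MAGE genes share reads. FOXJ1, the master regulator of motile cilia, was measured at 34.6, 29.4 and 30.1 CPM against 0.107, 0.0614 and 0.104 CPM, 317-fold higher. Of the motile cilia list, with 29 members and 17 tested, 4 were higher, FOXJ1 included, 4 lower and 9 not called. The other higher members were low in both clones: DNAH5, RSPH1 and SPEF2, genes of the ciliary axoneme, stood at 2.38, 1.21 and 2.03 CPM against 1.11, 0.373 and 0.505 CPM, each over 2-fold. CCDC113 and CCNO, further cilia genes, were lower by 1.06 ± 0.14 and 0.69 ± 0.12 on the log2 scale.

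Beyond the lists, the largest folds among genes of at least 10 CPM in the higher clone were taken by a rule of 12 per direction. MIR205HG, the host gene of miR-205, had 329, 334 and 310 counts in the APC clone and 0 in the vector clone, at least 111-fold higher against a floor of 3 counts per library. GALNT3, which starts the O-glycosylation of mucins, had a ratio of 759 (210 to 6280), with 2 counts in the vector clone, and CNTNAP2, a neuronal adhesion gene, of 533 (147 to 4410). PLEKHS1, DNER and IGFL1 had ratios of 595, 542 and 427. These genes were also at most 9 counts over the 3 parental libraries. In the other direction CADPS, a gene of vesicle release, had 2 counts against 1203, a ratio of 584 (161 to 4830), and stood at 8.62 to 9.56 CPM in SW480. TNNC1, the slow troponin C gene, was measured at 0.715, 0.752 and 0.584 CPM against 106, 103 and 102 CPM, and PDE2A, a cyclic nucleotide phosphodiesterase gene, was 226-fold lower.

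A second rule took the largest differences in deposited RPKM, a level per length, among genes over 2-fold. SAA1 led at 2880 ± 117 RPKM (SD, n = 3) against 494 ± 10.1, followed by MT2A, a metallothionein, at 2600 ± 16.8 against 975 ± 58.9. ALDH1A3, which makes retinoic acid, stood at 256 ± 1.74 against 28.6 ± 1.10 RPKM, and SDC4, a heparan sulfate carrier at adhesions, at 261 ± 4.74 against 53.7 ± 1.24. On the lower side NELF (now NSMF) stood at 165 ± 7.67 against 987 ± 26.7 RPKM, and IGFBP7, a secreted matrix protein, at 21.5 ± 1.67 against 259 ± 9.09.

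Genes detected in 1 clone, at 1 CPM or more there and 3 counts or fewer over the libraries of the other, numbered 55 for the APC clone and 34 for the vector clone. Of the 55, 34 were also at 3 counts or fewer in SW480 and 1 reached 1 CPM there. None of the 34 was at 3 counts or fewer in SW480, and 24 reached 1 CPM. With at least 2 CPM and 0 counts required, 14 and 1 remained. Genes over 2-fold higher in the APC clone took 5.07% to 5.19% of its counts and 1.48% to 1.5% of those of the vector clone, and genes over 2-fold lower 1.57% to 1.6% against 5.54% to 5.61%. Most counts were in genes with small differences: 5637 called genes under 1.5-fold held 57.2% to 58.0% of the counts of the APC clone. For 29% of genes tested the 95% interval of the change lay within 0.32 on the log2 scale in either direction. The median absolute log2 fold change of called genes was 0.50, or 1.42-fold.

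**Figure D5:**
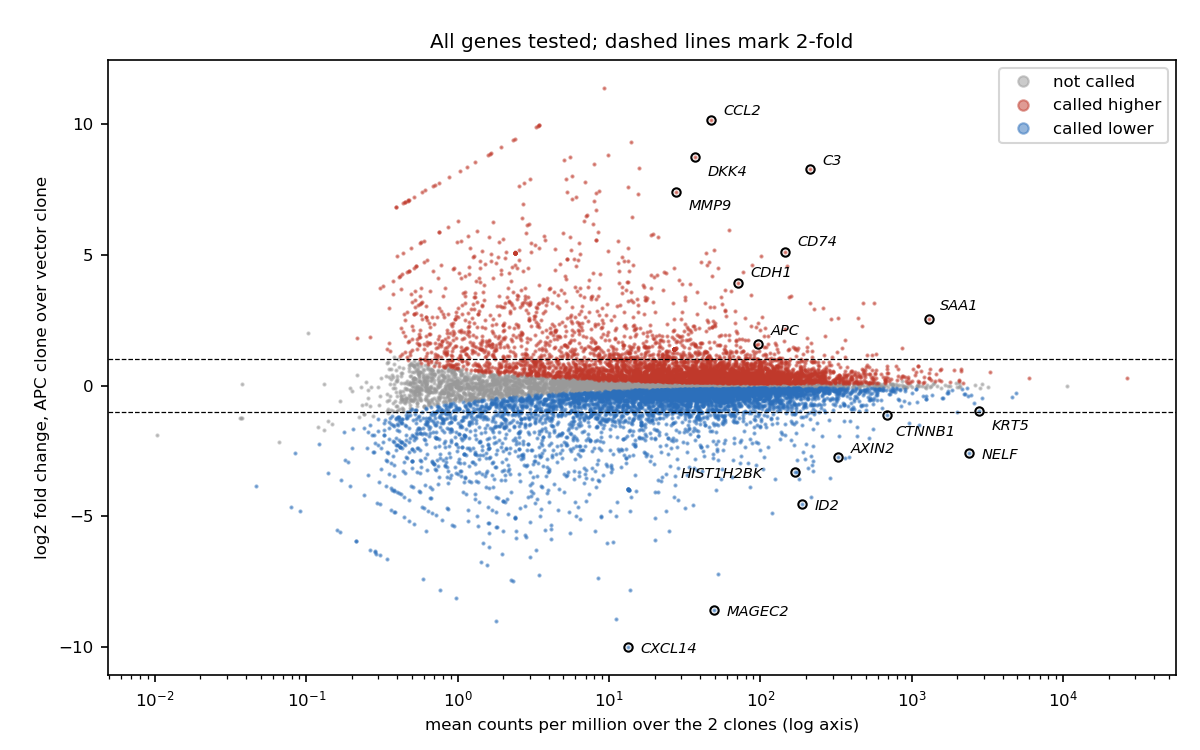
Log2 fold change of APC clone over vector clone against mean CPM (log axis) for all 14253 genes tested, 1 point per gene, called genes coloured, with dashed lines at 2-fold. The 1230 higher and 1381 lower genes beyond those lines are fewer at high CPM, and the spread is widest at low CPM.

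Some stretches of neighbouring genes differed together. In windows of 25 tested genes in RefSeq order the median log2 fold change had a 5th to 95th percentile of −0.41 to 0.44, over 13322 overlapping windows. The highest window ran from SRA1 to PCDHA13 with a median of 5.09 and the next from PCDHAC1 to PCDHGC3 with 1.39, both set by protocadherin genes, whose transcripts share exons and so reads. In these windows the vector clone was itself below SW480, with medians of −1.62 and −0.62. The window from RHBDF2 to DNAH17, which holds BIRC5, TK1 and SOCS3, had 22 genes higher and 2 lower (median 0.88). The lowest window, HIST2H2BF to ADAMTSL4, began with histone genes (median −1.17). In the next, PTGES3 to AGAP2, all genes but 1 were called lower, 24 of 25 (median −0.95), DDIT3, SHMT2 and MARS of the stress list among them, and the same window was higher in the vector clone than in SW480 (0.36). The part that gene order has in the values of DDIT3, SHMT2 and MARS was not tested.

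Markers of cells other than epithelium were followed too, since in bulk RNA fewer cells of a type and less RNA per cell cannot be told apart. Of 19 leukocyte markers 6 were not in the table, PTPRC, CD3D and MS4A1 among them. Of the 7 tested 5 were higher, 1 lower and 1 not called, and the list summed to 43.2 to 46.0 CPM in the APC clone, 15.7 to 19.7 in the vector clone and 29.9 to 30.6 in SW480. CORO1A, an actin regulator also found outside leukocytes, made up 30.6 CPM of the sum in the APC clone. Of 15 fibroblast and muscle markers COL3A1, DCN and POSTN were not in the table. Of the 7 tested 5 were lower and 2 not called, with a sum of 27.2 to 27.8 CPM against 62.2 to 62.9. The endothelial markers had sums of 3.12 to 3.91 against 6.65 to 8.04 CPM and the neural markers 111 to 113 against 193 to 200 CPM, with NEFM and ELAVL3 at 0. The leukocyte sum was higher in the APC clone, as were the chemokine and MHC class II genes. In that clone the chemokine list summed to 515 to 535 CPM and the class II list to 446 to 479 CPM. The libraries came from cultured clones of a carcinoma line, and a part of leukocytes in these values was not tested. The fibroblast, endothelial and neural sums were lower in the APC clone than in the vector clone. As markers of the labelled line, KRT8 and KRT18 were abundant in both clones.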

How the data were processed

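Polyadenylated RNA of 9 libraries, 3 per group, was sequenced. The deposited counts are whole reads per RefSeq transcript, 39276 transcripts of 20876 genes, unscaled, as the file headers and values show. The authors also deposited RPKM for the same transcripts, and these equal count over length, scaled by library, in 100% of transcripts to within 0.0001 of the value. The submitters' processing notes name Trimmomatic, TopHat, GATK and hg19, without roles. What counted the reads, on which strand and against which annotation is not given in the sources used here. In 6057 genes the second transcript held a median of 98.3% of the counts of the first, so transcripts of a gene share reads, and the transcript with the highest total stands for the gene. Of 65 names altered to dates 62 were repaired. The RefSeq table of GRCh38.p14 matched 20197 genes and gave their order and, for 11015 of the 14253 tested, a promoter window.

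Columns were assigned by name. One edgeR 4.0.16 fit (R 4.3.3) of all 9 libraries, with TMM factors of 0.982 to 1.03, the filterByExpr filter and a robust quasi-likelihood, gave the contrast of the clones. P-values were adjusted by Benjamini-Hochberg over all genes, with 0.05 as threshold, and a standard error is the log2 fold change over the square root of F. Single values were not tested by permutation, which for 3 libraries a side reaches no two-sided exact p under 0.1. Plates differed by more than sampling noise (chi-square per degree of freedom 1.36 to 3.228) and each was kept as 1 replicate.

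The clones, the 42 gene lists and the rules were chosen with earlier results of these data known. Lists are described by counts and medians, without a test of the list. Named genes were 7 fixed genes, 12 per direction by fold (at least 10 CPM in the higher clone, no overlap), 12 per direction by RPKM difference, up to 4 called members per list and direction plus the member highest in RPKM, and up to 6 per direction detected in 1 clone. This gave 312 genes, and some items are not reported here. SP5 and list members beyond these were named after their values were seen. In data simulated for the contrast of the clones, 200 of the 14253 tested genes were changed 1.5-fold or 2-fold, and 14080 genes passed the filter. Among these edgeR found 94% of those changed 2-fold and 90% of those changed 1.5-fold. It also called 11 unchanged genes, and 0 were in the wrong direction. Far fewer genes changed there than the 70.2% called in the data, so these rates need not hold for the data. Alternatives were DESeq2 1.42.0, limma 3.58.1 on log2 RPKM with pseudocounts of 1 and 0.1, RLE and upper quartile scaling, no filter, the 6 libraries alone, summed transcripts, blocking on replicate number, a minimum fold of 1.5, and each library left out.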

Additional observations from a re-analysis of the deposited data

How the results depend on the processing

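The counts of 4958 higher and 5046 lower genes stayed within 1.5 times under DESeq2, RLE and upper quartile scaling, no filter, 6 libraries, summed transcripts and limma on RPKM, and ran from 4692 to 5121 and from 4653 to 5139 when each library was left out in turn. Over 2-fold the left-out counts ran from 1239 to 1288 higher and from 1372 to 1414 lower. With a minimum fold of 1.5 as the tested hypothesis, 1627 were higher and 1737 lower. On log2 RPKM with a pseudocount of 1, limma gave 618 higher and 599 lower genes over 2-fold, and 610 and 590 at gene level, since the pseudocount shrinks low genes. The bounded set grew to 7724 at 1.5-fold, and genes detected in 1 clone fell to 14 and 1 under the stricter rule. The lowest window median was −3.97 with 15 genes and −0.84 with 51, and the highest 1.39 with 51. With a replicate block 4947 genes were higher and 5044 lower, 1230 and 1385 over 2-fold. Samples with equal numbers did not deviate together (r of −0.0628, −0.0663 and −0.013), so the numbers do not pair them. No result reversed under the alternatives run. Of 6260 comparisons of 313 named genes, 6151 kept direction and side of the threshold. The other 109 concerned 80 genes, 78 of them under the minimum fold of 1.5. Genes changing elsewhere were ACLY, AXL, HOXD11, IKBKG, MAML2, NPM1, RNF146, RRP12 and TM7SF2, and the cause was not tested. Of 1680 comparisons of the lists' 84 counts of higher and lower members, 1597 stayed within 1.5 times and 83, in 51 counts, did not, 50 of these under the minimum fold. The others were small counts: without APC replicate 2, APC replicate 3 or CONTROL replicate 3 the 5 lower cholesterol genes became 3, without CONTROL replicate 2 the 3 higher HOX genes became 1 (5 with limma), and lower counts of 1 or 2 in the NF-kappaB, differentiated colon, ribosome biogenesis and endothelial lists lost 1 member, under DESeq2, limma, summed transcripts, no filter or a left-out library. Without CONTROL replicate 3, 1 fibroblast marker was higher. For low genes, 3 counts were 0.156 to 0.184 CPM, which limits folds against the clone at 0. In the lowest of 4 level classes the median standard error was 0.239, against 0.043 in the highest.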
